A study of Mus musculus with 17 samples.

Results

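The genes described here were 8 interferon regulatory factor (IRF) genes, Irf1, Irf2, Irf3, Irf4, Irf5, Irf7, Irf8 and Irf9, and the genes of the leucine zipper proteins Batf and Batf3. They were taken by symbol from the expression table and make up 10 of its 24453 gene models. The study asked how AP-1 proteins, a family of transcription factors that pair through leucine zippers, differ in what they control in macrophages. PolyA RNA-seq was done on 13 libraries of mouse macrophages, and expression is given as RPKM, the reads of a gene scaled by its exon length and by library depth.

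Immortalised bone marrow-derived macrophages (iBMDMs) of the C57Bl/6EiJ strain were made with a retrovirus carrying mutant BRAF and Myc, so every iBMDM group, control included, carried both oncogenes as well as Cas9. A virus encoding 2 guides per target was used to knock out Atf3 (the Atf3KO group), Jun (the JunKO group) or Jund (the JunDKO group), and infected cells were sorted as a pool by a fluorescent marker of the virus. Cells with a scramble control genotype (Scramble, titled zsGreen) were the control. Each of these 4 groups held 2 libraries. Thioglycollate-elicited macrophages (TGEMs), primary cells recruited to the peritoneum, were kept for 1 h with PBS vehicle or with KLA (Kdo2 lipid A), which activates the receptor TLR4. There was 1 library of each treatment from C57Bl/6EiJ mice, while Balb/cJ mice gave 2 KLA libraries and 1 vehicle library.

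IRF proteins bind DNA through a conserved domain that reads repeats of GAAA, as in the interferon-stimulated response element (ISRE). IRF3, IRF5 and IRF7 are activated by signals from pathogen receptors and induce interferons and cytokines, whereas IRF9 is a subunit of ISGF3, the complex that carries type I interferon signals to the nucleus. IRF1 and IRF2 share many sites, at which IRF1 mostly activates and IRF2 often represses. IRF4 and IRF8 bind weakly alone and are recruited by PU.1 to ETS-IRF composite elements (EICE), or by BATF and BATF3 with a Jun protein to AP-1-IRF composite elements (AICE), which links these IRFs to the AP-1 family.

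Promoters of the 10 genes were searched on both strands over 250 bases before and 50 after the start. The searched letters were GAAA followed after 2 bases by GAAA for the ISRE, TTCNNNGAA for the gamma-activated site (GAS) bound by STAT dimers, TGANTCA for AP-1 and TGACGTCA for the cyclic AMP response element. The EICE was searched as GGAA followed after 2 bases by GAAA, and the AICE as TGANTCA with GAAA 4 bases after it or directly before it. A kappa B (kB) motif, the site of NF-kB, is given by name. The GAS letters were found in 4 of the 10 promoters (Irf1, Irf2, Irf8 and Batf3) and in 8.3% of all 32851 mouse promoters, and the kB motif in 2 of 10 and 8.46%. The ISRE and EICE letters, which overlap in part, were each found in 1 member, Irf2, against 3.44% and 2.72% of all promoters. The AP-1 letters (7.81% of promoters), the cyclic AMP response element (1.79%) and the AICE (0.119% and 0.125%) were found in none of the 10. The promoter stretches of Irf1, the member that was called with KLA, of Irf2, which with Irf9 was lower in Atf3KO, and of Irf8, which held 2 GAS matches, are printed 5′ to 3′ with matches in capitals. They are RefSeq sequence on GRCm38.p6, plus strand, and end before the transcription start: Irf1 at chr11:53769909-53770013, Irf8 at chr8:120736172-120736228 and Irf2 at chr8:46739495-46739744.
Irf1: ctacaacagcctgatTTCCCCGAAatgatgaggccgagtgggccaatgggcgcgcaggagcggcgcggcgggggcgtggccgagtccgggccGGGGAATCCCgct
Irf8: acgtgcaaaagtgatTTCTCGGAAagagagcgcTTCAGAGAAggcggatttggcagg
Irf2: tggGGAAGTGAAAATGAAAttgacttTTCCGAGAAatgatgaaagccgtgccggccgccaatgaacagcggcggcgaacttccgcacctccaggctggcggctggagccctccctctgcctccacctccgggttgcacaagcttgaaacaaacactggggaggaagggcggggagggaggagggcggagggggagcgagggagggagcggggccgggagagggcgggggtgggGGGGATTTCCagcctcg
In Irf1 the capitals mark a GAS match 90 to 82 bases before the start and a kB match 13 to 4 bases before it. In Irf8 they mark GAS matches at 171 to 163 and 153 to 145 bases. In Irf2 they mark, in order, the EICE (247 to 238) and the ISRE (241 to 232), which overlap, a GAS match (224 to 216) and a kB match (17 to 8). A match describes letters only.

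Library depth, recovered from the steps of the RPKM values, ran from 1553296 to 18444438 reads, and the Scramble libraries held 1929988 and 1711541. The Atf3KO libraries stood apart from the other iBMDM libraries, with reads in 10425 and 10631 gene models at 4397164 and 7236839 reads of depth, against 11884 to 12533 models in the other 6, of which 5 had a depth of 1553296 to 1929988 reads. The chi-square between the Atf3KO replicates, divided by its degrees of freedom, was 27.25, a value that grows with depth, against 3.54 to 3.78 in the other iBMDM groups. All libraries are labelled male, but the 5 TGEM libraries held 863 to 8676 reads of Xist and 0 of the Y-linked Ddx3y, while the 8 iBMDM libraries held at most 3 reads of Xist and 130 to 2612 of Ddx3y. TGEM libraries therefore go against that label, and sex cannot be told apart from cell kind. Atf3 mRNA was higher in Atf3KO (154 and 169 RPKM) than in Scramble (77.4 and 80.7 RPKM). Jun stood at 20.5 and 26.2 RPKM in JunKO against 17.6 and 18.5 in Scramble, and Jund at 6.07 and 6.94 RPKM in JunDKO against 8.33 and 9.19. Summed reads over a gene do not show small edits, so these levels do not check the knockout labels. The study reported western blots of knockout efficiency, and a substantial loss of Jun ChIP-seq binding in Jun knockout iBMDMs. Macrophage markers summed to 16674.7 to 32823.7 RPKM in iBMDMs and 7757.9 to 10828.7 RPKM in TGEMs, with all 7 detected in both. Most of each sum was Lyz2 (14814.9 to 30398.5 RPKM in iBMDMs and 5321.0 to 7145.3 RPKM in TGEMs), whereas Cd68 was higher in TGEMs (1403.7 to 4050.2 RPKM) than in iBMDMs (353 to 705 RPKM). Csf1r, Adgre1, Itgam and Fcgr1 were lower in every TGEM library than in any iBMDM library. Adgre1, for example, was 31.1 to 72.3 RPKM in TGEMs against 424 to 744 RPKM in iBMDMs. Mertk overlapped between the kinds.

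In Scramble iBMDMs the most abundant of the 10 transcripts per length was Irf5, at 74.0 and 78.8 RPKM. It was followed by Irf2 (33.5 and 35 RPKM) and Irf8 (36.9 and 27.2 RPKM), whose values overlapped, and then by Irf9 (24.2 and 26.6), Irf7 (26.3 and 22.0) and Irf1 (20.2 and 22.0), of which neighbours also overlapped. Irf3, which is activated as a protein downstream of TLR4, stood lower, at 19.5 and 9.54 RPKM. Its replicates differed by more than any other of these IRFs in Scramble. Batf, Irf4 and Batf3 were at or near the detection limit, with 1, 1 and 0 reads over both libraries. The 3 reads that a count of 0 allows correspond to 2.2 and 2.48 RPKM for the short Batf3 transcript, so a low level of Batf3 was not detectable in either library alone. Over both libraries together the limit is lower. These limits cover counting error only.

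In vehicle TGEMs Irf5 also led, at 146 RPKM in C57Bl/6EiJ and 81.3 RPKM in Balb/cJ. Irf8 (46.7 and 40.7 RPKM) and Irf2 (26.2 and 41.9 RPKM) followed, and their values overlapped as in Scramble. Batf reached 9.66 and 11.9 RPKM and ranked with Irf3 and Irf9, whose values overlapped it. Irf4 and Batf3 were the lowest, at 2.76 and 1.28 RPKM and at 3.72 and 1.21 RPKM. After KLA Irf1 led, at 245 to 272 RPKM, and its values did not overlap those of Irf5, the next gene, at 150 to 203 RPKM. The 10 transcripts summed to 221 to 235 RPKM in Scramble, 230 to 282 RPKM in vehicle TGEMs and 510 to 551 RPKM in KLA TGEMs, where Irf1 made up 44.5% to 53.3% of the sum.

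**Figure D1:**
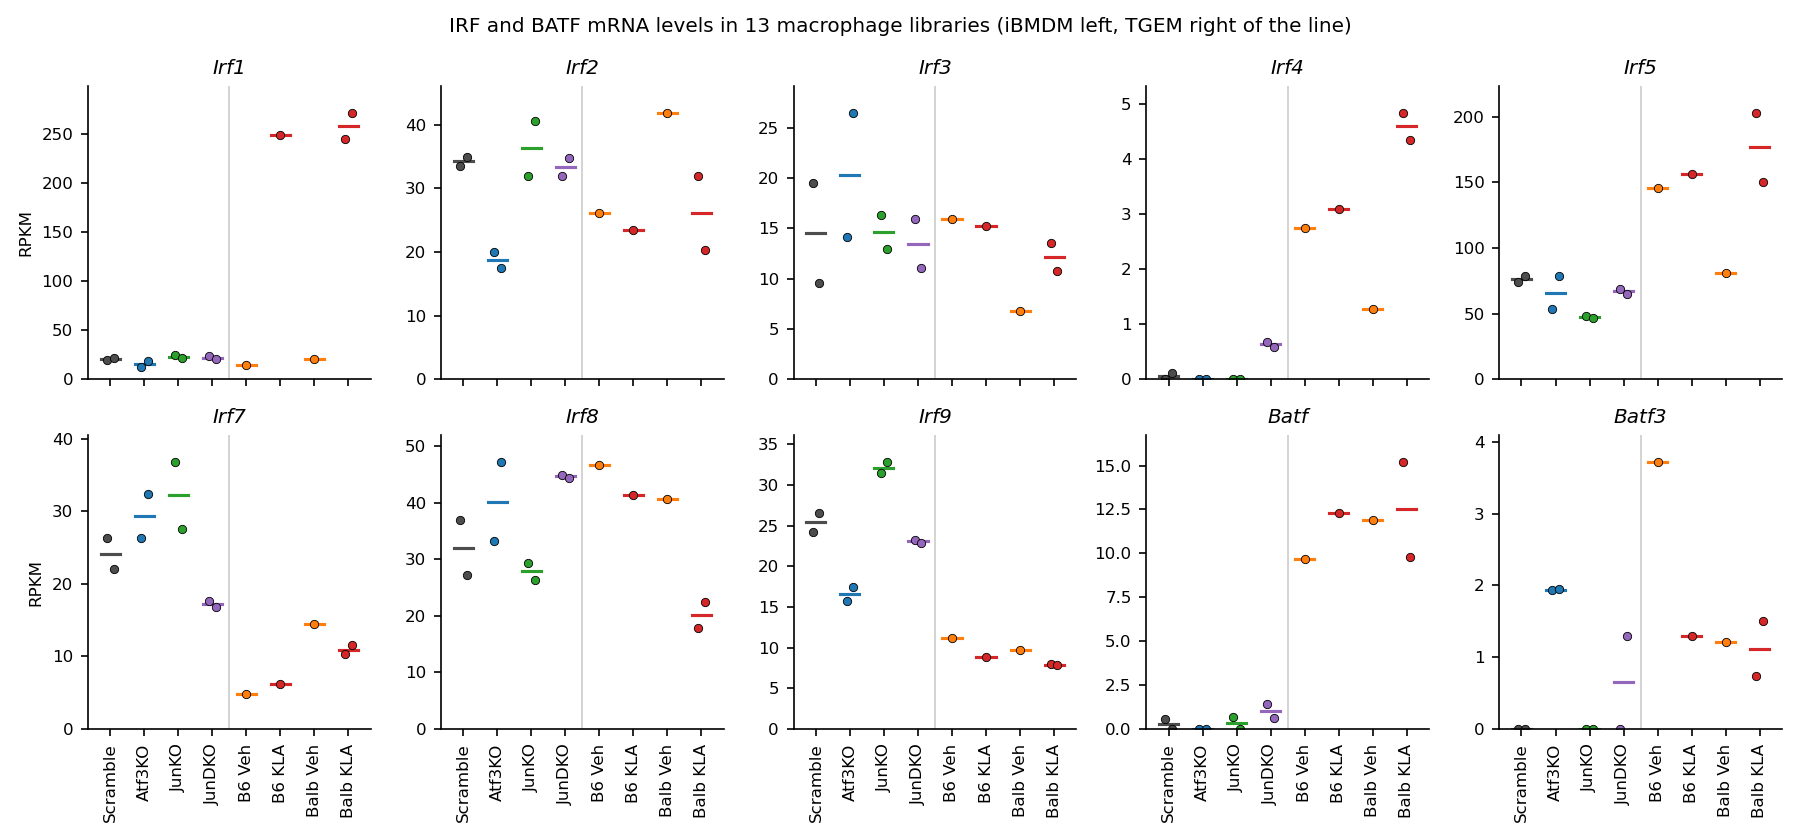
RPKM of each gene (y axis, linear, from 0) in the 13 libraries by group (x axis; B6 is C57Bl/6EiJ, Veh is vehicle). Points are libraries and bars are group means. Irf1 stands at 245 RPKM or more in the 3 KLA libraries and below 25 RPKM in all others, Irf2 is lowest in Atf3KO among iBMDMs, and Irf4 and Batf lie near 0 in iBMDMs.

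The knockouts were compared with Scramble to ask whether loss of an AP-1 protein changed the IRF genes. The libraries labelled Atf3KO had lower Irf2 and Irf9, by less than 2-fold, and no IRF gene passed the test in JunKO or JunDKO. The part of the lower number of detected gene models in Atf3KO was not tested. The test was limma-trend on log2(RPKM + 1) over the 8 iBMDM libraries. A gene passed at a Benjamini-Hochberg adjusted p under 0.05 over all genes tested and was called where it also changed at least 2-fold. The 7 IRF genes other than Irf4 had a mean of at least 1 RPKM and were tested, and Irf4, Batf and Batf3 were below that filter. Of the 7, 2 passed in Atf3KO, where 41.2% of all 10691 genes passed, so in this fit the share of IRF genes was not above that of all genes. With a correction for GC content 4 passed, all lower (Irf1, Irf2, Irf5 and Irf9). The shares of all genes that passed with that correction are not given here. In JunKO and JunDKO 0 of 7 passed, against 0.281% and 11.7% of all genes. None of the 7 was called in any of the 3, while 28.7%, 0.281% and 8.77% of all genes were. Between knockouts 2 of 7 passed in Atf3KO over JunKO (35.5% of all genes), 2 in Atf3KO over JunDKO (40.7%) and 1 in JunDKO over JunKO (8.14%), and again none was called (24.1%, 28.6% and 6.31% of all genes). With the GC correction 4 passed in Atf3KO over JunKO and 5 in Atf3KO over JunDKO, all lower. In JunDKO over JunKO 1 then passed higher and 1 lower. Against Scramble, at an unadjusted p under 0.05 there was 1 of 7 in JunKO, where 842 of 10691 genes were, and 0 in JunDKO, where 2939 were. The same member counts were found with limma-voom on recovered reads.

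Irf2, the repressor that shares sites with IRF1, was 20.0 and 17.5 RPKM in Atf3KO. It was 33.5 and 35 RPKM in Scramble, 32.0 and 40.6 RPKM in JunKO and 32.0 and 34.8 RPKM in JunDKO. Both Atf3KO libraries lay below the other 6 iBMDM libraries without overlap. Relative to Scramble the log2 level differed by -0.83 ± 0.19 (SE; 2 libraries in each group; limma adjusted p = 0.00997), a 1.78-fold lower level. Direct contrasts of the knockouts gave -0.91 ± 0.19 against JunKO (limma adjusted p = 0.0089) and -0.80 ± 0.19 against JunDKO (limma adjusted p = 0.0113). Atf3KO replicate 2 carries a later label date than all other iBMDM libraries, and without it the change over Scramble was -0.74 (limma adjusted p = 0.0393). The pass over Scramble was lost without Scramble replicate 2 (log2 -0.81, limma adjusted p = 0.0615), the pass over JunKO without JunKO replicate 2 (0.0645) and that over JunDKO without JunDKO replicate 2 (0.0797). Irf2 has the lowest GC content of the 10 transcripts, 46.8%, and with a correction for GC content its log2 change over Scramble was -0.56 (limma adjusted p = 0.0113).

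Irf9, the DNA-binding subunit of ISGF3, was 15.7 and 17.5 RPKM in Atf3KO, below 24.2 and 26.6 RPKM in Scramble. It was highest in JunKO, at 31.4 and 32.8 RPKM, and 23.2 and 22.9 RPKM in JunDKO. The 4 groups did not overlap, and Scramble and JunDKO lay closest together. The log2 fold change of Atf3KO over Scramble was -0.58 ± 0.17 (SE; limma adjusted p = 0.026), and this pass was lost without Scramble replicate 1 (0.0626), Scramble replicate 2 (0.128) or Atf3KO replicate 1 (0.0528). The contrast with JunKO was larger, -0.91 ± 0.17 (limma adjusted p = 0.00622), and kept its side of the threshold in all 15 alternatives, with adjusted p from 0.00304 to 0.0421. The contrast with JunDKO was -0.45 ± 0.17 and did not pass (limma adjusted p = 0.0633). It passed with the GC correction (-0.41, limma adjusted p = 0.0394) and without the filter on low values (-0.45, 0.0415).

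Irf7, which is itself induced by interferon and amplifies it, passed between knockouts and not over Scramble, and these contrasts were not tested against each other. It was 26.3 and 32.4 RPKM in Atf3KO, 36.8 and 27.6 RPKM in JunKO and 17.6 and 16.8 RPKM in JunDKO, against 26.3 and 22.0 RPKM in Scramble. The JunDKO libraries were the lowest of the iBMDMs. JunDKO was below JunKO by 0.85 on the log2 scale (log2 fold change -0.85 ± 0.21; limma adjusted p = 0.0472), and Atf3KO was above JunDKO by 0.73 ± 0.21 (limma adjusted p = 0.0262). Over Scramble the JunDKO change was -0.46 ± 0.21 (limma adjusted p = 0.204), or -0.75 ± 0.20 (0.0547) after library medians were made equal and -0.52 ± 0.13 (0.0229) with the GC correction. The contrast of JunDKO with JunKO did not pass without any 1 of its 4 libraries (limma adjusted p of 0.21 and 0.0819 without JunKO replicates 1 and 2, and 0.213 and 0.232 without JunDKO replicates 1 and 2). The contrast of Atf3KO with JunDKO did not pass without Atf3KO replicate 2 (0.107), JunDKO replicate 1 (0.0968) or JunDKO replicate 2 (0.126), nor with the GC correction (0.101).

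Irf5, the most abundant member and a mediator of inflammatory cytokine induction, was 48.5 and 47.1 RPKM in JunKO, below 74.0 and 78.8 RPKM in Scramble. It was 53.5 and 78.6 RPKM in Atf3KO and 68.8 and 65.2 RPKM in JunDKO, and the JunKO libraries lay below the other 6 iBMDM libraries. The log2 difference of -0.67 ± 0.20 had an unadjusted p of 0.0114 in limma and did not pass (adjusted p = 0.394). In Atf3KO the log2 difference was -0.23 ± 0.20 (limma adjusted p = 0.383), but -0.84 ± 0.15 (adjusted p = 0.00374) with the GC correction, and that of Irf1 was -0.43 ± 0.22 (0.155), but -0.66 ± 0.17 (0.0197). Irf1 also passed without Atf3KO replicate 2 (-0.70, limma adjusted p = 0.045).

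Irf8, which with PU.1 sets the macrophage programme, was 45.0 and 44.4 RPKM in JunDKO, against 36.9 and 27.2 RPKM in Scramble and 29.4 and 26.4 RPKM in JunKO. The JunDKO libraries lay above those of Scramble and JunKO without overlap, but within the range of Atf3KO, at 33.2 and 47.2 RPKM. The differences did not pass (log2 0.48 ± 0.23, limma adjusted p = 0.214 over Scramble; 0.66 ± 0.23, adjusted p = 0.12 over JunKO), but with the GC correction the second was 0.65 and passed (limma adjusted p = 0.0178). Irf3 showed the widest interval in the knockouts. Its log2 fold change in Atf3KO was 0.47, with a 95% interval of -0.42 to 1.37, and those in JunKO and JunDKO were 0.08 (-0.81 to 0.98) and -0.04 (-0.93 to 0.86). For Irf1 the intervals were -0.39 to 0.64 in JunKO and -0.46 to 0.57 in JunDKO, so a 2-fold change lies outside them. The median log2 change of all genes was 0.23 in JunDKO over Scramble and -0.03 after library medians were made equal, and Irf1, at 0.06 before, was -0.23 after.

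**Figure D2:**
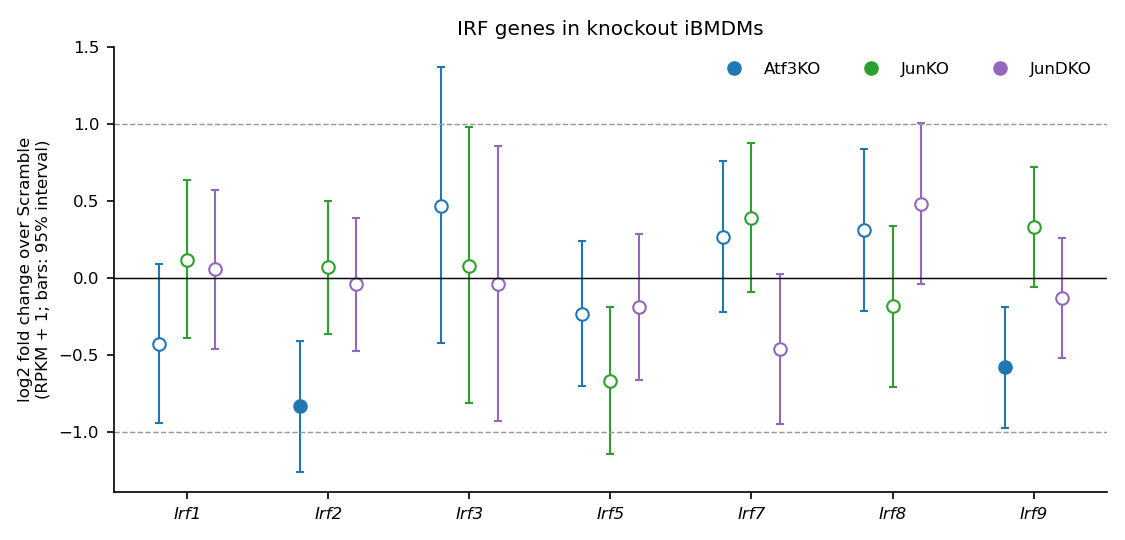
log2 fold change over Scramble on the log2(RPKM + 1) scale (y axis) for the 7 IRF genes tested (x axis) in Atf3KO, JunKO and JunDKO. Bars are 95% intervals, filled points have an adjusted p under 0.05, and dashed lines mark 2-fold. The filled points are Irf2 (-0.83) and Irf9 (-0.58) in Atf3KO.

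The IRF4-BATF group was sparse in iBMDMs. Irf4 had 56 reads in the JunDKO libraries (5 and 51, or 0.689 and 0.592 RPKM), 1 read in Scramble and 0 in Atf3KO and JunKO. JunDKO replicate 2 is the deepest library and replicate 1 the shallowest, and the part of depth in these counts was not tested. Batf3 had 6 and 10 reads in Atf3KO (1.93 and 1.95 RPKM), 17 in JunDKO replicate 2 (1.3 RPKM) and 0 in the other 5 iBMDM libraries. The limit of each of those 5 libraries on its own was 2.2 to 2.73 RPKM, above the Atf3KO levels. When all genes were tested without the filter, Irf4 in JunDKO over Scramble (log2 0.63, limma adjusted p = 0.0123) and Batf3 in Atf3KO over Scramble (1.56, adjusted p = 0.0218) passed. Batf3 lies 61353 bases from Atf3, with 1 gene model between them. Batf had 0 to 10 reads per iBMDM library, 10 of them in JunDKO replicate 2.

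Genes around the IRFs were followed in fixed lists. The IRF2-binding corepressors Irf2bp1, Irf2bp2 and Irf2bpl, partners of IRF2 in repression, were all higher in Atf3KO, where Irf2 was lower. Of the 3, 3 passed (Irf2bp2 log2 1.36 ± 0.31, limma adjusted p = 0.0108; Irf2bpl 1.07, 0.0486; Irf2bp1 1.05, 0.0359), with a median of 1.07 against 0.05 over all genes tested, but 1 passed with the GC correction (median 0.22) and 0 without Scramble replicate 1 or 2 and 1 without Atf3KO replicate 2. Of all genes 41.2% passed in Atf3KO, and none of the 3 passed in JunKO or JunDKO. In TLR4 to IRF signalling 3 of 13 passed in Atf3KO, Mavs (0.93) and the ubiquitin ligase Traf6 (0.82) higher and the IRF3 kinase Tbk1 (-0.73) lower, and 0 in JunKO. In JunDKO 1 passed, Traf6 (1.02), where 11.7% of all genes did, but with equal medians or quantile normalization 0 of the list passed higher and 1 lower. The signalling genes that passed fell to 0 in JunDKO without any 1 of its 4 libraries, and to 0 in Atf3KO without Scramble replicate 2. In the list of interferon receptors and ISGF3, 3 of 9 tested passed in Atf3KO, with the kinase Jak2 lower (-1.32) and Tyk2 (0.99) and Stat2 (0.77), the ISGF3 partner of IRF9, higher. Neither share was above the 41.2% of all genes that passed in Atf3KO. Of the composite element partners, Jund was higher (2.19) and Ets1 lower (-1.75) in Atf3KO, and Ets1 was lower in JunDKO (-1.19, limma adjusted p = 0.0484), a pass lost without any 1 of the 4 libraries.

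ISRE target genes, the interferon-stimulated genes that ISGF3 and IRFs bind, passed in both directions in Atf3KO and only lower in JunDKO. In Atf3KO 5 of 26 were higher and 4 lower, with a median of -0.03, and this share was below the 41.2% of all genes; without Scramble replicate 2 the 5 were 2, without Atf3KO replicate 1 they were 3 and the 4 were 8. Those changed most were Ifit1, an antiviral RNA-binding protein, from 53.1 and 64.3 RPKM in Scramble to 6.5 and 7.08 RPKM (log2 -2.93 ± 0.18), the chemokine Cxcl10 (-2.59 ± 0.19) and Rsad2, the antiviral enzyme viperin (-1.79 ± 0.23). In JunDKO 8 of 26 were lower and 0 higher, where 11.7% of all genes passed in either direction. The median was -0.55 against 0.23 over all genes, and the largest changes were those of Ifit1 (-1.88 ± 0.18), Rsad2 (-1.76 ± 0.23) and Usp18, a brake on interferon signalling (-1.63 ± 0.19). The JunDKO count was 13 after library medians were made equal or GC was corrected, and 3 to 4 when 1 library was left out (4 without Scramble replicate 1, and 3 without Scramble replicate 2, JunDKO replicate 1 or JunDKO replicate 2). In JunKO 0 of 26 passed. Between knockouts, 11 of 26 were lower in JunDKO than in JunKO (8.14% of all genes passed; 5 to 6 when 1 library was left out) and 9 were higher and 2 lower in Atf3KO than in JunDKO (40.7% of all genes passed), with the 9 falling to 3 without JunDKO replicate 2. The 9 genes higher in Atf3KO than in JunDKO were 13 with equal library medians and 14 with the GC correction. Irf7, whose own gene is interferon-stimulated, was also lower in JunDKO than in JunKO, a pass lost in 7 of 15 alternatives. It did not pass over Scramble (limma adjusted p = 0.204), and a link to the ISRE target genes was not tested.

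KLA was compared with vehicle to ask which IRF genes respond within 1 h of TLR4 stimulation. Irf1, an activator induced early by NF-kB, rose over 10-fold in both strains and was the only member to pass. Irf1 stood at 249 RPKM (1721 reads) after KLA against 14.7 RPKM in vehicle in C57Bl/6EiJ TGEMs. In Balb/cJ TGEMs it stood at 245 and 272 RPKM after KLA against 21.1 RPKM in vehicle. Each KLA library lay above both vehicle libraries, and the ratios were 16.9 in C57Bl/6EiJ and 11.6 and 12.9 in Balb/cJ. The first of the Balb/cJ KLA libraries shares its label date with the vehicle library and the second does not, and the C57Bl/6EiJ pair shares a date, so 16.9 and 11.6 are values within a date. The log2 fold change with strain as a covariate was 3.74 ± 0.26 (SE; limma adjusted p = 7.75e-04), or 13.4-fold. One of 10 members was called, where 1.53% of 10357 genes were. The call was lost without the Balb/cJ vehicle library (log2 3.99, adjusted p = 0.0605), and over the other 15 alternatives the adjusted p stayed below the threshold.

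The other 9 genes did not pass. Irf4, which is induced in activated lymphocytes and alternatively activated macrophages, was 4.85 and 4.36 RPKM after KLA against 1.28 RPKM in Balb/cJ, and 3.09 against 2.76 RPKM in C57Bl/6EiJ. Irf5 was 203 and 150 RPKM against 81.3 RPKM in Balb/cJ, and 156 against 146 RPKM in C57Bl/6EiJ. Irf8 was 17.9 and 22.5 RPKM against 40.7 RPKM in Balb/cJ, and 41.4 against 46.7 RPKM in C57Bl/6EiJ. The KLA to vehicle ratios of these 3 genes in C57Bl/6EiJ were 1.12, 1.06 and 0.887, and both Balb/cJ ratios of each gene share 1 vehicle library. The fitted log2 changes over both strains were 0.79 ± 0.33 (limma adjusted p = 0.327), 0.66 ± 0.33 (0.381) and -0.63 ± 0.29 (0.364). Irf2 was lower after KLA in each pair (ratios 0.898, 0.762 and 0.485; log2 -0.46 ± 0.30, limma adjusted p = 0.497), as was Irf9 (0.785, 0.823 and 0.806; -0.29 ± 0.23, 0.574). Irf3 and Irf7 went opposite ways by strain, with Irf3 at a log2 difference of -0.06 in C57Bl/6EiJ and 0.91 and 0.60 in Balb/cJ, and Irf7 at 0.29 against -0.44 and -0.29. Batf ratios were 1.27, 1.28 and 0.826, and those of Batf3, which had 2 to 30 reads per library, were 0.35, 0.611 and 1.25. The median log2 change of all genes with KLA was -0.15, and -0.02 after library medians were made equal.

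**Figure D3:**
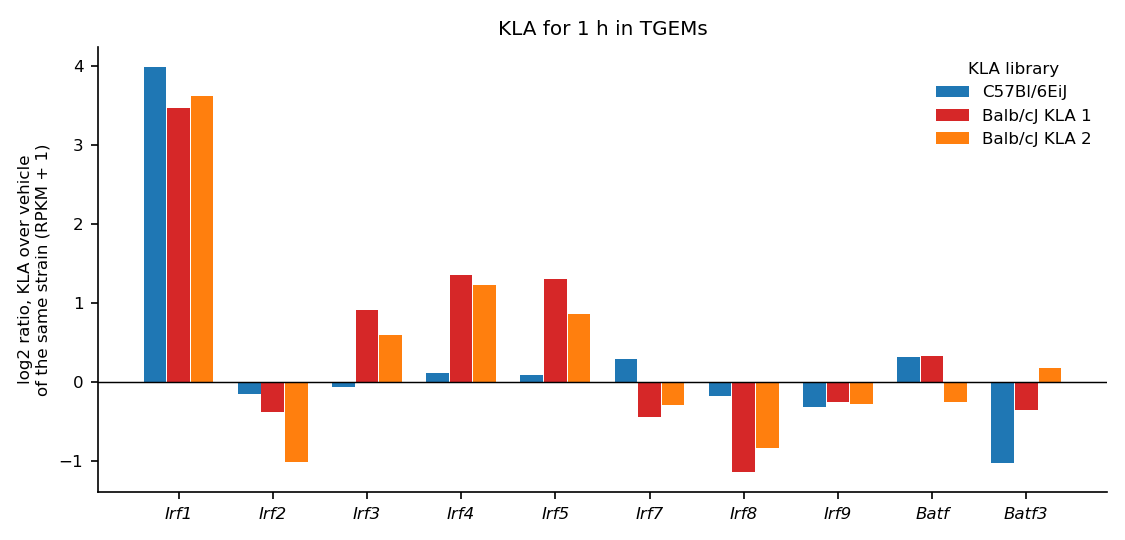
log2 ratio of KLA over the vehicle library of the same strain on the log2(RPKM + 1) scale (y axis) for the 10 genes (x axis), with 1 bar for each KLA library. Irf1 bars reach 3.48 to 3.99, and both Balb/cJ bars of a gene share 1 vehicle library.

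Whether the KLA response differed by strain was tested as an interaction, with 1 residual degree of freedom. None of the 10 genes passed in limma (1 at an unadjusted p under 0.05, and 0 with limma-voom), nor did any of 10357 genes (0%; 835 at an unadjusted p under 0.05). The largest difference was that of Irf4, 1.17 on the log2 scale (95% interval 0.04 to 2.31; limma adjusted p = 0.611). For Irf5 it was 1.00 (-0.55 to 2.56), for Irf8 -0.81 (-2.21 to 0.59), for Irf3 0.81 (-0.52 to 2.15) and for Irf7 -0.65 (-1.89 to 0.59). These intervals are wide and do not show that the strains responded alike.

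Between strains, 0 of 10 genes passed in the fit with treatment as a covariate (2.31% of all genes). At an unadjusted p under 0.05 there was 1 member, where 2213 of 10357 genes were, and 2 with limma-voom. Irf7 was higher in each Balb/cJ library, at 14.4, 10.3 and 11.5 RPKM, than in the C57Bl/6EiJ libraries, at 4.85 and 6.13 RPKM, without overlap. Its log2 difference of 1.02 ± 0.26 did not pass (limma adjusted p = 0.0924), but passed when all 13 libraries shared the estimate of the spread (0.0226). Irf3 and Irf8 had log2 differences of -0.66 ± 0.28 and -0.66 ± 0.29, Balb/cJ lower (limma adjusted p of 0.241 and 0.252). Strain cannot be told apart from label date or from the genome to which reads were aligned, since Balb/cJ reads were aligned to a genome of that strain. Of the corepressors, Irf2bp2 and Irf2bpl were both lower in Balb/cJ by 1.35 on the log2 scale (log2 -1.35, limma adjusted p of 0.0483 and 0.0364), and 0 of 3 passed after library medians were made equal.

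In the signalling list 1 of 13 genes passed with KLA, where 1.53% of all genes did, the TLR4 co-receptor Cd14 (log2 3.71 ± 0.50, limma adjusted p = 0.0135). Ifnb1, the interferon that IRF3 induces, was listed at 0 in all iBMDM and vehicle libraries and stood at 3.21 RPKM in C57Bl/6EiJ and 10.3 and 16.3 RPKM in Balb/cJ after KLA. It passed the filter only through the KLA libraries, so no test of it is given. Of 25 ISRE target genes tested, 3 rose, Isg15, a ubiquitin-like modifier (4.59 ± 0.46), the chemokine Ccl5 (3.42 ± 0.45) and Cxcl10, with a median of 0.49 over the list against -0.15 over all genes. Cxcl10, at 1.2 and 0.78 RPKM in vehicle, reached the filter through the KLA libraries, where it was 30.8 to 81.1 RPKM. Its estimate is therefore not given, and the 3 include a gene selected in this way. Among the composite element partners Junb, a BATF partner in the AICE, rose (3.77 ± 0.41, limma adjusted p = 0.00521). None of these passed without the Balb/cJ vehicle library, and Cd14 did not pass without Balb/cJ KLA replicate 1 either.

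Resting primary and immortalised macrophages were compared within 1 fit of all 13 libraries, by the C57Bl/6EiJ vehicle coefficient against Scramble. TGEMs had more Batf and less Irf7 and Irf9. Irf4 and Batf3 were also higher by this coefficient, but neither was called without the C57Bl/6EiJ vehicle library. Of the 10 genes 5 were called, 3 higher and 2 lower, where 37.6% of 10929 genes were called, 13.5% higher and 24.2% lower. The 3 higher genes, Batf, Irf4 and Batf3, were under the filter in the iBMDM fit and entered this one only through the TGEM libraries, where they are high, so their count supports nothing and their p values describe genes selected in this way. With no filter on low values all 3 also passed in limma. The share that passed at any fold was 46.3% of all genes. Cell kind cannot be told apart from sex, culture, oncogenes or label date in this comparison, and in bulk samples more cells of a type cannot be told apart from more RNA per cell.

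Batf had 25 to 236 reads in each TGEM library (9.66 to 15.2 RPKM) and 0 to 10 reads in each iBMDM library (at most 1.43 RPKM), so the kinds did not overlap. The C57Bl/6EiJ vehicle library held 99 reads and both Scramble libraries together 1, which is 31.6 times the rate per read sequenced (5.54 to 1261.0, exact 95% interval). These intervals of read rates cover counting error only. The fitted log2 change was 3.17 ± 0.39 (limma adjusted p = 1.09e-04). Irf4 was 1.28 to 4.85 RPKM in TGEMs and at most 0.689 RPKM in iBMDMs, again without overlap, with 147 reads against 1 (ratio 46.9, 8.29 to 1866.4; fitted log2 1.49 ± 0.35, limma adjusted p = 0.00573). Without the C57Bl/6EiJ vehicle library, a choice made after seeing the data, Irf4 did not pass (log2 0.65, limma adjusted p = 0.238), Batf did (3.37, 0.00618) and Batf3 fell under the filter. Batf3, with 30 reads in the C57Bl/6EiJ vehicle library, was at least 3.19-fold higher than in Scramble, where the 0 reads were set to 3 over the group (limma adjusted p = 0.0051). Its call was lost with the GC correction (0.153), and its TGEM values of 0.738 to 3.72 RPKM overlapped those of Atf3KO. Over all 5 TGEM and 8 iBMDM libraries the ratios of read rates were 30.7 for Batf, 12.2 for Irf4 and 1.46 (0.927 to 2.34) for Batf3. A fitted fold change of genes this low depends on the added 1 RPKM.

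B and dendritic cells between them express Irf4, Batf, Batf3 and Irf8, and markers of other cells were summed in both kinds. The 6 B cell markers summed to 36.1 to 53.9 RPKM in TGEMs and 0 to 0.943 RPKM in iBMDMs, where Cd79b and Pax5 were at 0 in every library. Most of the TGEM sum was Cd22 (24.4 to 37.6 RPKM). The 6 dendritic cell markers summed to 0.653 to 3.71 RPKM in TGEMs against 0 to 0.758 RPKM, and the 6 T cell markers to 1.36 to 3.14 RPKM against 0.132 to 1.7 RPKM. Both of these sums overlapped between the kinds. The 5 mast cell markers summed to 1.78 to 13.7 RPKM against 0 to 0.264 RPKM, without overlap. Neutrophil markers (0.794 to 13.4 RPKM against 0 to 41.1 RPKM, mostly S100a8) and eosinophil markers (0.804 to 4.15 RPKM against 0 to 6.15 RPKM) did not separate the kinds. The part of these cells in the levels of Irf4, Batf and Batf3 was not tested.

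Irf7 was 4.85 and 14.4 RPKM in vehicle TGEMs, below both Scramble libraries at 26.3 and 22.0 RPKM (log2 -1.91 ± 0.26, limma adjusted p = 2.15e-04, 3.76-fold lower), and all 5 TGEM libraries lay below all 8 iBMDM libraries. Irf9 was 11.2 and 9.7 RPKM in vehicle TGEMs against 24.2 and 26.6 RPKM in Scramble (log2 -1.12 ± 0.19, limma adjusted p = 9.71e-04, 2.18-fold lower), also without overlap between the 5 TGEM and 8 iBMDM libraries. Both passed in all 15 alternatives, but Irf9 was under 2-fold with a pseudocount of 5 (log2 -0.92), equal medians (-0.85), quantile normalization (-0.86) and the GC correction (-0.97). Irf8 and Irf5 were close to the threshold, with log2 differences of 0.78 ± 0.29 (limma adjusted p = 0.0508) and 0.64 ± 0.31 (0.109). Both passed after library medians were made equal (1.06, adjusted p = 0.0176 and 0.93, adjusted p = 0.0184), a scaling that moved the median of all genes from -0.28 to -0.04, but with the GC correction Irf8 was 0.34 and Irf5 was -0.06. Without the C57Bl/6EiJ vehicle library Irf8 passed (1.36, limma adjusted p = 0.0387) and Irf5 was -0.07 (0.915), whereas Irf5 passed without the C57Bl/6EiJ KLA library (0.93, 0.0252) or the Balb/cJ vehicle library (0.93, 0.0254), and Irf8 without Scramble replicate 1 (0.99, 0.0489). Irf1, Irf2 and Irf3 did not pass (log2 -0.37 ± 0.25, -0.22 ± 0.27 and -0.03 ± 0.42).

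**Figure D4:**
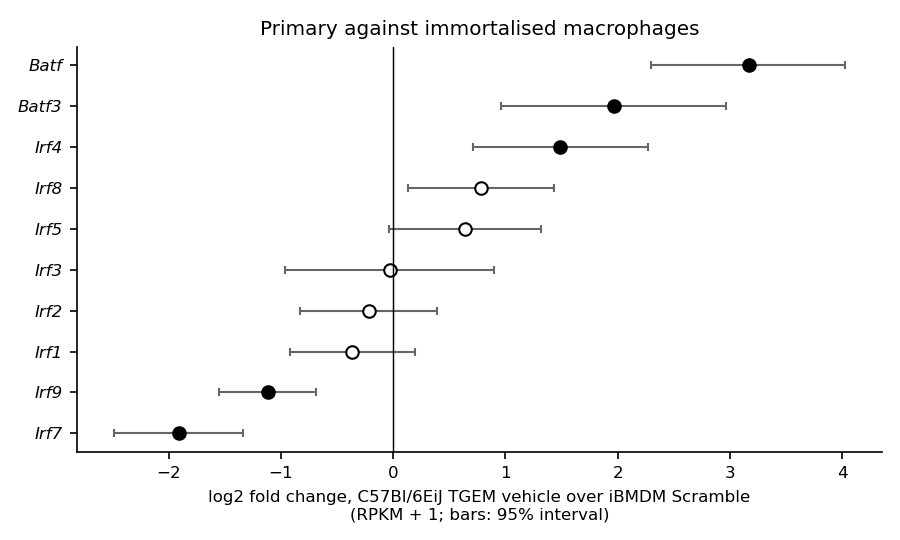
log2 fold change of C57Bl/6EiJ vehicle TGEMs over Scramble iBMDMs on the log2(RPKM + 1) scale (x axis) for the 10 genes (y axis). Bars are 95% intervals and filled points have an adjusted p under 0.05. Batf (3.17), Batf3 (1.97) and Irf4 (1.49) lie to the right and Irf7 (-1.91) and Irf9 (-1.12) to the left.

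A partner of IRF9 and its targets were lower in TGEMs too. Stat2, the ISGF3 partner of IRF9, was 5.1 and 8.99 RPKM in vehicle TGEMs against 20.2 and 20.8 RPKM in Scramble (log2 -1.87 ± 0.23, limma adjusted p = 9.92e-05). Of 27 ISRE target genes 22 were lower and 1 higher, all at least 2-fold, with a median of -2.47 against -0.28 over all genes, where 24.2% were called lower. Of these 27, 25 reached the filter in the TGEM fit. The rest entered only through the iBMDM libraries, where they are high, so the count and median include genes selected in this way. Examples of lower genes are Ifit1 (1.3 RPKM in both vehicle libraries against 53.1 and 64.3 RPKM in Scramble), Ifit3 (0.044 and 3.21 RPKM against 47 to 50.1 RPKM) and Isg15 (1.4 and 2.27 RPKM against 45.5 and 48.2 RPKM). The count of lower genes was 17 to 23 over the 15 alternatives. In TLR4 to IRF signalling 1 of 13 was higher, Ticam1, the adaptor TRIF (2.18 ± 0.39), and 5 were lower, where 46.3% of all genes passed, among them Cd14 (-2.85 ± 0.48) and the adaptor Myd88 (-1.54 ± 0.29). The counts were 3 higher and 3 lower with equal medians or quantile normalization, 2 higher with the GC correction, 0 higher without the C57Bl/6EiJ vehicle library, 2 higher without the C57Bl/6EiJ KLA library, the Balb/cJ vehicle library or Balb/cJ KLA replicate 1, and 3 lower without either Scramble library, the Balb/cJ vehicle library or the C57Bl/6EiJ KLA library. Among the composite element partners Jund (3.46 ± 0.48) and Jun (2.36 ± 0.47) were higher. Ets1, at 0.769 and 0.267 RPKM in vehicle TGEMs, was under the filter in the TGEM fit, so no test of it is given. Spi1, which encodes PU.1, was 257 and 182 RPKM in vehicle TGEMs and 144 and 188 RPKM in Scramble. The 3 IRF2-binding corepressors were higher (Irf2bpl 1.82, Irf2bp2 1.14, Irf2bp1 1.09), of which 1 passed with the GC correction or without the C57Bl/6EiJ vehicle library. Outside the 10, the family gene Batf2 stood at 1.41 to 4.38 RPKM in TGEMs and was under the filter in the iBMDM fit, so no test of it is given.

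**Figure D5:**
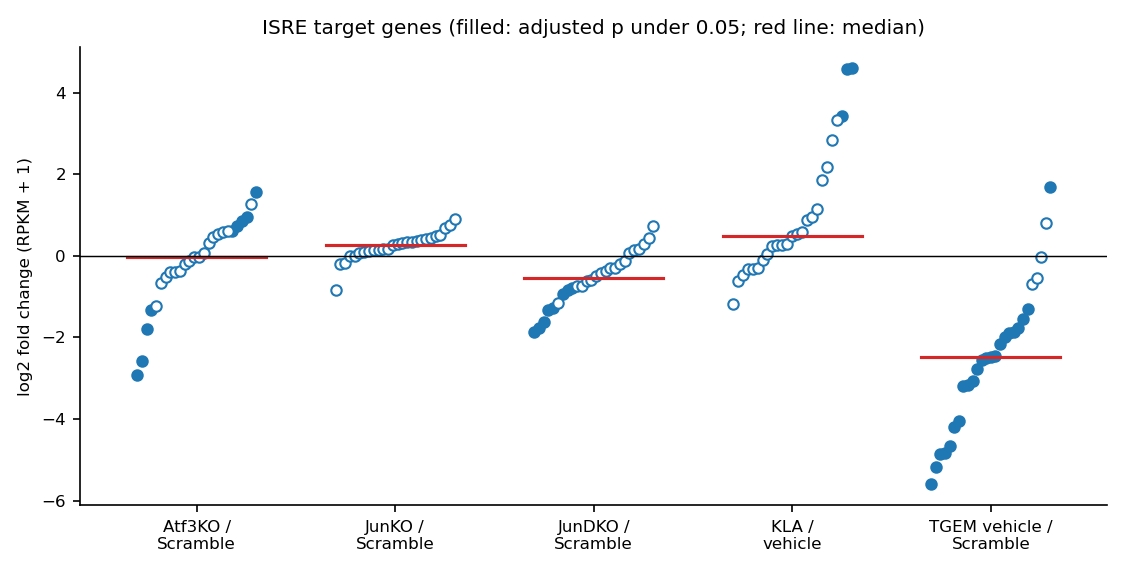
log2 fold change on the log2(RPKM + 1) scale (y axis) of ISRE target genes in 5 comparisons (x axis), with each gene a point, filled where the adjusted p was under 0.05, and the list median a red line. In TGEM vehicle over Scramble 22 genes are filled below 0 and the median is -2.47, and in JunDKO over Scramble 8 are filled below 0 with a median of -0.55. Of the 27 genes in TGEM vehicle over Scramble, 25 reached the filter in the TGEM fit.

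For the 7 members that reached 16 RPKM in any group, the protein-coding gene with the most similar profile was sought among 5806 genes, by the root mean square (RMS) difference of centred log2(RPKM + 1) means over 8 groups. Irf7 was closest to Slfn8, a Schlafen family gene, with an RMS difference of 0.15 against a spread (SD) of 0.87 in its own profile. Irf9 was closest to Mrps18b, a mitochondrial ribosome gene (0.12 against 0.68), and Irf2 to the calcineurin subunit gene Ppp3r1 (0.11 against 0.35). The nearest to Irf5 was Rnf149 (0.19 against 0.64), to Irf8 Brap (0.16 against 0.38) and to Irf3 the RNA demethylase gene Alkbh5 (0.14 against 0.38). The nearest to Irf1 was Gm6377 (0.40 against 1.59). These are descriptions over groups of 1 or 2 libraries.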

How the data were processed

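PolyA RNA-seq of 13 libraries was analysed, and 4 GRO-seq samples were not analysed here. The deposited values are RPKM. STAR, with its default parameters, was used by the authors to align reads, with mm10 as the reference for C57Bl/6EiJ and a strain-specific genome for Balb/cJ, and the file header gives a command of HOMER that counted exons and condensed transcripts to genes. Versions and strand setting are not given in the sources used here. The authors tested counts with edgeR, which was not used here.

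RPKM times exon length moved in whole reads (100.0% of low values within 0.05 of a whole read, or within the rounding of the values where that is larger), which gave depth, reads and limits of 3 reads. log2(RPKM + 1) of genes with a mean of at least 1 RPKM was fitted with limma-trend (limma 3.58.1, R 4.3.3; Python 3.11.15), over 8 iBMDM libraries, over 5 TGEM libraries with treatment and strain, or over all 13. P values were two-sided and Benjamini-Hochberg adjusted over all genes tested. Folds on this scale understate changes of low genes. The Atf3KO and the Balb/cJ KLA replicates carry different label dates. For the other replicates the labels do not say whether cultures were separate, so p values measure the spread between these libraries, which may be technical. With 1 library left out, a lone library was assumed to vary like the other groups. The GC correction removed a spline with 5 degrees of freedom per library, over RefSeq transcripts matched to 98.8% of models.

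The members and gene lists were chosen with earlier results of these data known. All 10 members are named. Of each list, up to 3 genes with the largest change among those that passed are named per comparison, and for each member at 16 RPKM or more in any group, the gene of nearest profile. Spi1, Atf3, Jun, Jund, Xist and Ddx3y were named outside this rule. No member's span overlaps another gene model. Alternatives were other pseudocounts and filters, equal library medians, quantile normalization, limma-voom on recovered reads, the GC correction, a replicate block, other covariates, 1 fit of all libraries and leaving out each library, of which the TGEM libraries other than the Balb/cJ vehicle library were left out of the cell kind comparison only after seeing the data. The methods were tested on simulated data. Promoter sequence is RefSeq GRCm38.p6. Some genes of the lists are not reported here.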

Additional observations from a re-analysis of the deposited data

How the results depend on the processing

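Over 33 results on single genes, 404 of 445 alternatives kept direction and side of the threshold, 23 lost and 16 gained a pass, and 2 reversed, both Irf5 in TGEMs over Scramble, at -0.06 with the GC correction and -0.07 to 0.93 when 1 library was left out (-0.07 without the C57Bl/6EiJ vehicle library). The number of members called, 0 in Atf3KO over Scramble, was 1 without the low-value filter and 1 with all 13 libraries in 1 fit. For Atf3KO over JunKO it was 0, and 1 in those same fits, 2 with equal library medians, 2 with quantile normalization, and 0 to 1 when 1 library was left out (1 without JunKO replicate 1). For JunDKO over JunKO it was 0, and 1 with equal medians or quantile normalization. For Balb/cJ over C57Bl/6EiJ it was 0, and 1 with all 13 libraries. For KLA it was 1, and 0 to 1 when 1 library was left out (0 without the Balb/cJ vehicle library). For TGEMs over Scramble it was 5, but 2 with a pseudocount of 5, 2 with the 16 RPKM minimum and 3 with the GC correction. The causes were not tested, apart from the filters, which remove low genes by construction.

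Counts of all genes called moved by more than 1.5 times as follows. With a pseudocount of 5 and with the 16 RPKM minimum, the 3068 of Atf3KO over Scramble were 1397 and 1339, the 938 of JunDKO 534 and 531, the 2577 of Atf3KO over JunKO 1089 and 1038, the 3057 of Atf3KO over JunDKO 1475 and 1307, the 675 of JunDKO over JunKO 384 and 374, the 239 of the strains 134 and 120, and the 4113 of TGEMs over Scramble 2500 and 2301. The 30 of JunKO over Scramble were 9 with a pseudocount of 0.1 and 80 with the GC correction. The 158 of KLA were 57 without the filter, 310 with limma-voom, 368 with all 13 libraries, 71 with label date in place of strain and 84 with no covariate, and the strain count was 44, 584 and 595 in the first 3 of these. The interaction called 0 genes, 21 with a pseudocount of 5 and 144 with the GC correction. Leaving out 1 library gave 1943 for Atf3KO (without Scramble replicate 2), 17 for JunKO (without Scramble replicate 2), and for JunDKO 580 and 514 without Scramble replicates 1 and 2 and 409 and 411 without JunDKO replicates 1 and 2. It gave 1714 and 1479 for Atf3KO over JunKO without Atf3KO replicate 2 and JunKO replicate 2, 2036 for Atf3KO over JunDKO without JunDKO replicate 2, and for JunDKO over JunKO 383 and 399 without JunKO replicates 1 and 2 and 228 and 257 without JunDKO replicates 1 and 2. It gave 28 and 78 for KLA without the Balb/cJ vehicle library and Balb/cJ KLA replicate 1, and for the strains 87, 146, 45, 32 and 397 without the C57Bl/6EiJ vehicle, C57Bl/6EiJ KLA and Balb/cJ vehicle libraries and Balb/cJ KLA replicates 1 and 2.

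Deviations of same-numbered libraries correlated at 0.225, 0.185 and 0.186 among Scramble, JunKO and JunDKO but at -0.207, -0.215 and -0.12 with Atf3KO over 10691 genes. The labels tie no number to a batch and each comparison has only 2 numbers, so they were not taken as pairs, which leaves a shared source among the first 3 groups untested. With a replicate block 0 members were called in each knockout comparison, JunKO over Scramble called 14 genes in place of 30, and Irf7 in JunDKO over JunKO did not pass (limma adjusted p = 0.0731). A crossed block, added after seeing the data, left 0 members called in the 3 Atf3KO comparisons, with 3184 genes over Scramble, 2714 over JunKO and 3178 over JunDKO, while Irf1 (limma adjusted p = 0.043) and Irf8 (0.0408) over JunKO and Irf9 over JunDKO (0.0357) gained a pass. No member was called by a fit without the Atf3KO libraries, also added later, in the other 3 knockout comparisons. Depth limits Batf3 in iBMDMs, where the limit of 5 single libraries was 2.2 to 2.73 RPKM and the limit of these libraries together is lower.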
